A study of Mus musculus with 8 samples.

Results

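The cells described are the basophils and mast cells of mouse periosteum, the cell layer that covers bone, as picked out by their granule proteases. A kept cell (more than 500 and fewer than 8000 detected genes, under 20% mitochondrial transcripts) entered the basophil arm when it held at least 5 unique transcript molecules (UMIs) of Mcpt8, and the mast cell arm when it held at least 5 UMIs of Cma1 and Mcpt4 together. The rule took 97 of 12253 kept cells, 43 of 6029 from the normal diet (ND) library and 54 of 6224 from the high fat diet (HFD) library. The basophil arm had 83 cells (39 ND, 44 HFD), the mast cell arm 15 (5 ND, 10 HFD), and 1 ND cell met both conditions.

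Male C57BL/6J mice were 16 weeks old and had been fed normal diet chow or high fat diet chow, with no other difference between the groups in the labels. Cells were released from left femurs and tibias with collagenase and dispase and measured by droplet-based 3′ single-cell RNA sequencing. The labels name 4 mice per diet, but the deposited counts are 1 matrix per diet in which no cell can be assigned to a mouse. Each diet is therefore 1 library, no test between diets was possible. Intervals are 95% intervals and hold the error of counting alone.

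The libraries held 48558889 UMIs in 6314 barcodes (ND) and 49940976 UMIs in 6636 barcodes (HFD), with a median of 4610 and 4823.5 UMIs per kept cell. Basophil-arm cells were deeper, with a median of 10537 UMIs (ND) and 9652 UMIs (HFD), and mast-cell-arm cells had 5069 and 5442. The libraries shared 15 barcodes, and 0 of them belonged to either arm.

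Basophils and mast cells are granulocytes that carry the high-affinity receptor for IgE, whose crosslinking by antigen releases histamine, proteases and lipid mediators and starts the synthesis of cytokines such as IL-4. Basophils mature in bone marrow under IL-3 and circulate, while mast cells mature in tissues, often beside vessels and nerves, under stem cell factor acting on the receptor Kit. In the mouse the protease genes tell them apart: Mcpt8 and Prss34 are typical of basophils, and Cma1, Mcpt4 and Tpsb2 of connective tissue mast cells, while Cpa3 is used by both.

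The promoters of the 5 protease genes that define the arms are shown because the results turn on them: Mcpt8, Cma1 and Mcpt4 chose the cells, and Prss34 and Cpa3 followed Mcpt8 most closely from cell to cell. Each runs 5′ to 3′ on the gene's own strand, from 250 bases before to 50 bases after the transcription start in RefSeq (GRCm38.p6). Capitals mark the GATA motif as AGATAA or TGATAA on either strand, 1 form of the letters that the blood factor GATA2 binds. Other forms were not searched. The intervals are chr14:56085148-56085447 for Mcpt8 (minus strand), chr17:25298144-25298443 for Prss34 (plus), chr3:20242132-20242431 for Cpa3 (minus), chr14:55944626-55944925 for Cma1 (minus) and chr14:56062261-56062560 for Mcpt4 (minus).
Mcpt8: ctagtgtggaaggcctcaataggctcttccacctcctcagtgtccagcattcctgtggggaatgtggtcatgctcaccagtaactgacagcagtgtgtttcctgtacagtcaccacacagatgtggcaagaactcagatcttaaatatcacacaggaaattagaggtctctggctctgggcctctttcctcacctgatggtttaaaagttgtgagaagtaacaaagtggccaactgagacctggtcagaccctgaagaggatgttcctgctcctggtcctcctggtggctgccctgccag
Prss34: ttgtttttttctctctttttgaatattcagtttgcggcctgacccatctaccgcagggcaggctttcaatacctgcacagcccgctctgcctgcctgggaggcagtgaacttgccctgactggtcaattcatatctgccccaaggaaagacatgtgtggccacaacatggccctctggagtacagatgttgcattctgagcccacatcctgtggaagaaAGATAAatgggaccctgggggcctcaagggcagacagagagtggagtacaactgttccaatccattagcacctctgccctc
Cpa3: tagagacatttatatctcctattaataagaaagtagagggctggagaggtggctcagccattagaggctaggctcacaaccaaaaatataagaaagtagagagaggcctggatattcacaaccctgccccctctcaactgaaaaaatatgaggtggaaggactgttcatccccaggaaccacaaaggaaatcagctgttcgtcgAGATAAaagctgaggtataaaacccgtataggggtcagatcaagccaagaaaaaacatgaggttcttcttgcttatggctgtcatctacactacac
Cma1: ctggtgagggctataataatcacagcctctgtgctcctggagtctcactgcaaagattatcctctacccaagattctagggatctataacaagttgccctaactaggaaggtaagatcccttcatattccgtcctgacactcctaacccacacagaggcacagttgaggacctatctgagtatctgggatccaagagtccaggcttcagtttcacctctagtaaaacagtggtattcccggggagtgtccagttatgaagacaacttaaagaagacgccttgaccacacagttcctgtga
Mcpt4: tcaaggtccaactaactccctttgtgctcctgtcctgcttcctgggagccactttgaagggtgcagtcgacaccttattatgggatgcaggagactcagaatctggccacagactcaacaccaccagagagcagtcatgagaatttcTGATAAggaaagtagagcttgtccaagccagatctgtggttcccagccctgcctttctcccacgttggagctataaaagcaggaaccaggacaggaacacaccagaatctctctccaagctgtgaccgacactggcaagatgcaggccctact
In this form the GATA motif was found 1 time each in the windows of Prss34, Cpa3 and Mcpt4, and 0 times in those of Mcpt8 and Cma1, which may hold other forms. Of 32851 promoters of this length, 18.6% hold it. The motif TGTGGT, bound by RUNX factors, was found 2 times in the Mcpt8 window, 1 time each in those of Cpa3, Cma1 and Mcpt4, and 0 times in that of Prss34, against 16.8% of all promoters. CATGTG or CACGTG, bound by MITF, was found only in the Prss34 window among these 5 (1 match, 20.4% of all promoters). These are matches of letters, not measured binding.

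Mcpt8 (mast cell protease 8, ENSMUSG00000022157) ranged in the basophil arm from 5 to 715 UMIs per cell in ND (median 68) and from 5 to 718 in HFD (median 99). Both libraries thus held a continuum from the threshold upwards. At least 100 UMIs were found in 18 ND and 22 HFD cells. Just inside the threshold, 9 cells in each library held 5 to 9 UMIs, and just outside it 116 ND and 108 HFD cells held 1 to 4. The arm held 97.7% of all Mcpt8 UMIs of kept cells in ND and 98.3% in HFD. A further 2 HFD barcodes with at least 5 Mcpt8 UMIs did not pass the cell filter.

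The arm made up 0.647% of kept cells in ND (Clopper-Pearson interval 0.460 to 0.883) and 0.707% in HFD (0.514 to 0.948). The mast cell arm made up 0.0829% (0.0269 to 0.193) and 0.161% (0.0771 to 0.295). Its cells with at least 5 UMIs of the protease gene Cpa3 made up 0.0332% in ND and 0.0482% in HFD. For both arms the intervals of the libraries overlapped, and with 1 library per diet a difference in shares cannot be told apart from a difference between single cell preparations.

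**Figure D1:**
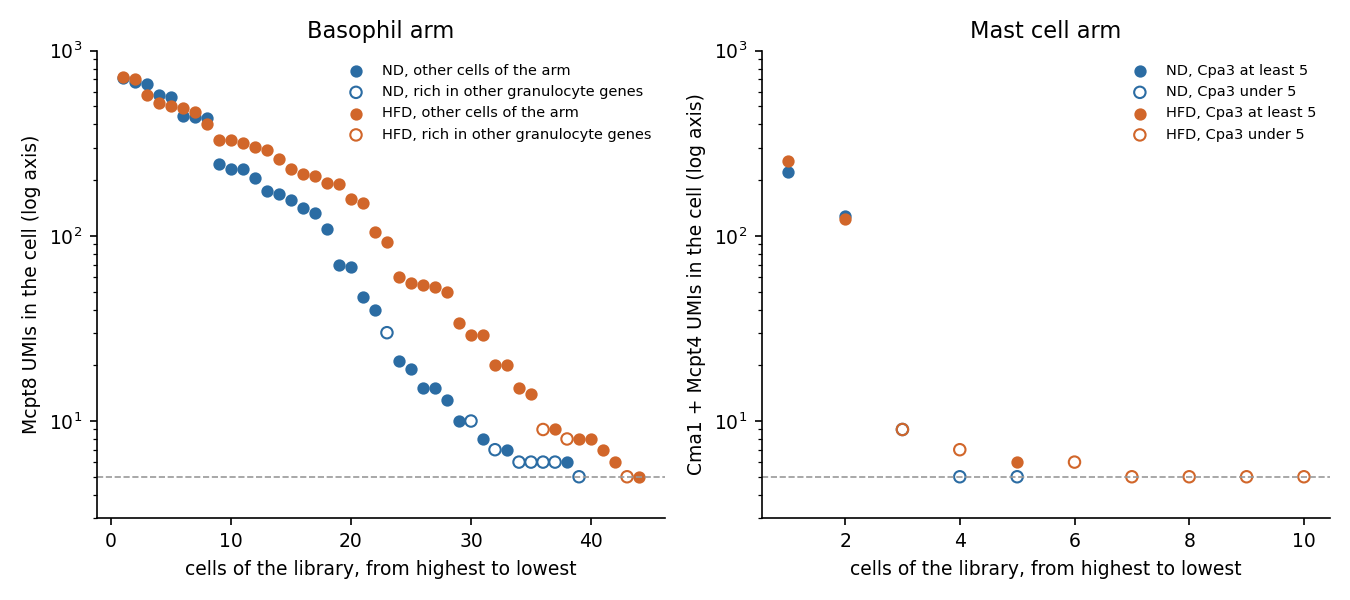
UMIs of the genes that chose the cells (log axis) for each member, ranked from highest to lowest within its library, Mcpt8 in the basophil arm at left and Cma1 plus Mcpt4 in the mast cell arm at right; open circles are cells rich in other granulocyte genes (left) or with under 5 Cpa3 UMIs (right), and the dashed line marks the threshold of 5 UMIs. Both libraries run from 5 to above 700 Mcpt8 UMIs, whereas in the mast cell arm 2 ND and 2 HFD cells exceed 100 UMIs and 3 ND and 8 HFD cells lie between 5 and 9.

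The label of the basophil arm was checked on genes that the rule had not used. At least 5 UMIs of the IgE receptor genes Fcer1a and Ms4a2 and of Cd200r3, an activating receptor of basophils, were found together in 30 of 39 ND and 37 of 44 HFD cells of the arm. Among all other kept cells 11 of 5986 ND and 9 of 6170 HFD cells reached that sum. The cells of the arm that fell short included most of the granulocyte-rich cells described next.

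A group of 11 cells in the basophil arm (8 ND, 3 HFD) was rich in genes of other granulocytes. In 5 ND cells and 0 HFD cells S100a8, a neutrophil protein, had at least 100 UMIs, in 5 ND and 1 HFD cell the azurophil granule genes Elane and Prtn3 did together, and in 1 ND and 2 HFD cells Prg2, the major basic protein of eosinophils, did. The 3 Prg2-rich cells held 3631 (ND), 3095 and 2069 (HFD) Prg2 UMIs, with 120, 76 and 57 UMIs of the eosinophil peroxidase gene Epx. Most of the 11 held fewer than 5 UMIs of Fcer1a, Ms4a2 and Cd200r3 together, so the basophil label was not borne out in those cells. The ND cell with 64075 UMIs, for example, had 0 UMIs of these genes and of Prss34 but 261 of Prtn3. Mcpt8 was low in all 11, from 5 to 30 UMIs in ND and from 5 to 9 in HFD. Their totals ran from 5049 to 67808 UMIs per cell, and they carried 36.9% of all UMIs of the arm in ND and 18.3% in HFD. Of them, 2 HFD cells had a Scrublet doublet score above 0.25, as did 0 cells elsewhere in either arm. Levels below are sums over the whole arm, and the values without these 11 cells are given beside those of the main genes. Without them 72 cells remained (31 ND, 41 HFD), in which Mcpt8 had a median of 141 UMIs (ND) and 150 UMIs (HFD).

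The label of the mast cell arm held for only part of it. Cpa3, the mast cell carboxypeptidase, had at least 5 UMIs in 5 of 15 cells (2 ND, 3 HFD) and 0 UMIs in the other 10. Among the 5 cells, 3 had the full set of connective tissue mast cell proteases. The ND cell of these 3 held 156 UMIs of Mcpt4, 64 of the chymase gene Cma1, 39 of the tryptase gene Tpsb2, 39 of Cpa3 and 9 of Kit. One HFD cell held 133 UMIs of Mcpt4, 122 of Cma1, 40 of Tpsb2, 60 of Cpa3 and 4 of Kit, and the other held 104, 20, 18, 26 and 6. All 3 had 0 UMIs of Mcpt8, and they were small, with 2543, 2711 and 2826 UMIs in total.

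The other 2 Cpa3-positive cells lacked Mcpt4 and Tpsb2. The ND cell that met both conditions of the rule held 128 UMIs of Cma1, 70 of Mcpt8, 147 of Cpa3, 73 of Gzmb, 10 of Gata2 and 9 of Kit, with 0 of Prss34. The HFD cell held 6 UMIs of Cma1, 3 of Mcpt8, 157 of Cpa3, 359 of the granzyme gene Gzmb, 19 of Gata2 and 13 of Kit. Both thus combined Kit and Cpa3 with Gzmb, which had 0 UMIs in the 3 Mcpt4-positive cells.

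In the remaining 10 cells (3 ND, 7 HFD) the data went against the label. They held 5 to 9 Cma1 UMIs, but 0 UMIs of Mcpt4, Tpsb2, Cpa3, Fcer1a, Ms4a2 and Gata2. Instead they carried 40 to 153 UMIs of Gzma, 50 to 388 of the chemokine gene Ccl5, 8 to 43 of Nkg7 and 1 to 17 of Gzmb, genes of cytotoxic lymphocytes. Their leading genes over other kept cells, after Cma1, were Gzma, the killer lectin receptor gene Klra4, its near relative Klra8 and the perforin gene Prf1. Reads of the Klra genes may be split among near-identical copies. These 10 cells are called Gzma-rich cells below.

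Cma1 was also found below the threshold in cells of the same kind. In kept cells outside the arms with at least 2 UMIs of the natural killer cell genes Klrb1c and Ncr1 and 0 UMIs of Cd3d, Cd3e and Cd3g, a Cma1 UMI was found in 28 of 98 ND cells (28.6%, 19.9 to 38.6) and in 42 of 90 HFD cells (46.7%, 36.1 to 57.5), with at most 4 UMIs per cell. B cells (at least 5 Cd79a UMIs, 1545 ND and 1485 HFD) were picked with 0 UMIs of Mcpt8, Cma1 and Mcpt4. They thus give no background share for Cma1. Over all kept cells a Cma1 UMI was found in 47 of 6029 ND cells (0.780%) and 61 of 6224 HFD cells (0.980%). Median depth was 5011.5 and 4991 UMIs in the cells with natural killer cell genes and 4610 and 4823.5 in all kept cells. Mcpt4 had 0 UMIs in the former. At a threshold of 5 Cma1 and Mcpt4 UMIs the arm thus held Gzma-rich cells, with 5 to 9 Cma1 UMIs, beside the Mcpt4-positive cells, with 20 to 122.

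**Figure D2:**
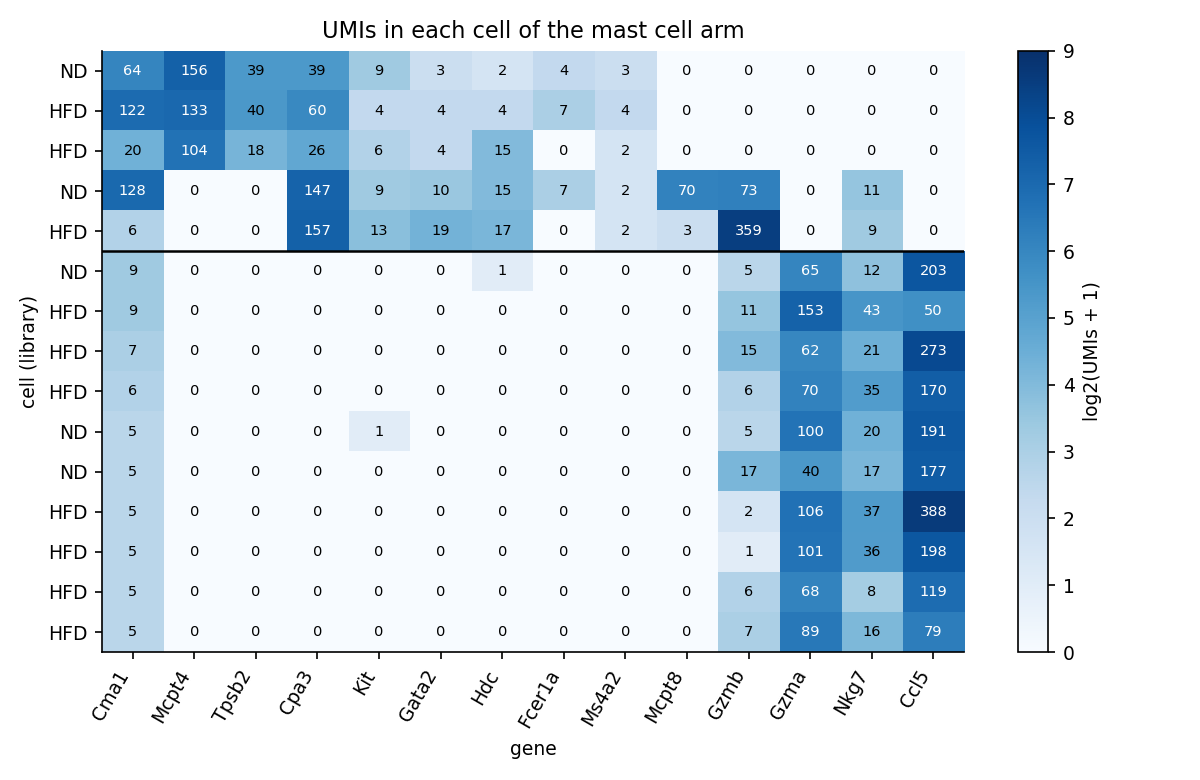
UMIs of mast cell genes, Mcpt8 and lymphocyte genes in each of the 15 cells of the mast cell arm (rows, by library), with the count written in each field and coloured as log2(UMIs + 1). Above the line are the 3 cells with Mcpt4 and Tpsb2 and the 2 cells with Cpa3 but neither of these, and below it the 10 cells with Gzma, Ccl5 and Nkg7 and 0 UMIs of Cpa3.

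Further mast cell genes were confined, within the arm, to the Cpa3-positive cells. Mrgprb1, a member of the Mas-related receptor family, had 18 UMIs in 3 cells, and the neuropeptide- and drug-sensing receptor gene Mrgprb2 had 3 UMIs in 3 cells. Tph1, the first enzyme of serotonin synthesis, had 8 UMIs, and Tpsab1 had 2. Il1rl1, the IL-33 receptor, had 19 UMIs in these 5 cells. With 5 cells a diet comparison would compare single cells, and none was made for the mast cell arm.

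Mcpt8, Cma1 and Mcpt4 lie with other granule protease genes in 1 locus of 15 genes on chromosome 14 (chr14:55941451-56262260, 320810 bases, mm10). In the 72 basophil-arm cells Mcpt8, Ctsg, Gzmb and Gzmc were detected there, beside 3 UMIs of Gzmf and 2 of Mcpt2. Mcpt8 stood at 15042 UMIs per 1000000 UMIs of the group in ND and 16336 in HFD, Ctsg (cathepsin G) at 2455 and 3167, Gzmb at 1352 and 1401, and Gzmc at 650.0 and 1099. Mcpt4 had 0 UMIs in the whole basophil arm, and Cma1 had 129 UMIs in ND, of which 99.2% came from the cell in both arms, and 1 UMI in HFD. In the 5 Cpa3-positive mast-cell-arm cells the locus gave Cma1 (340 UMIs), Mcpt4 (393, in 3 cells), Gzmb (432, in 2 cells) and Mcpt8 (73, in the same 2 cells), beside 3 UMIs of Mcpt2 and 2 of Ctsg. The Gzma-rich cells gave Cma1 (61 UMIs) and Gzmb (75), beside 1 UMI of Ctsg. Cma2, Mcpt1, Mcpt9, Gzmd, Gzme, Gzmg and Gzmn were at 0 in all 3 groups. The last 500 bases of transcript share exact runs of up to 27 bases between Cma1 and Mcpt4 but 100 between Cma2 and Mcpt4. Runs reached 196 bases between Cma2 and Mcpt9, 96 between Gzme and Gzmd and 88 between Gzmg and Gzmn. UMIs of pairs with such long runs, and the values of 0 among them, could be less certain.

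**Figure D3:**
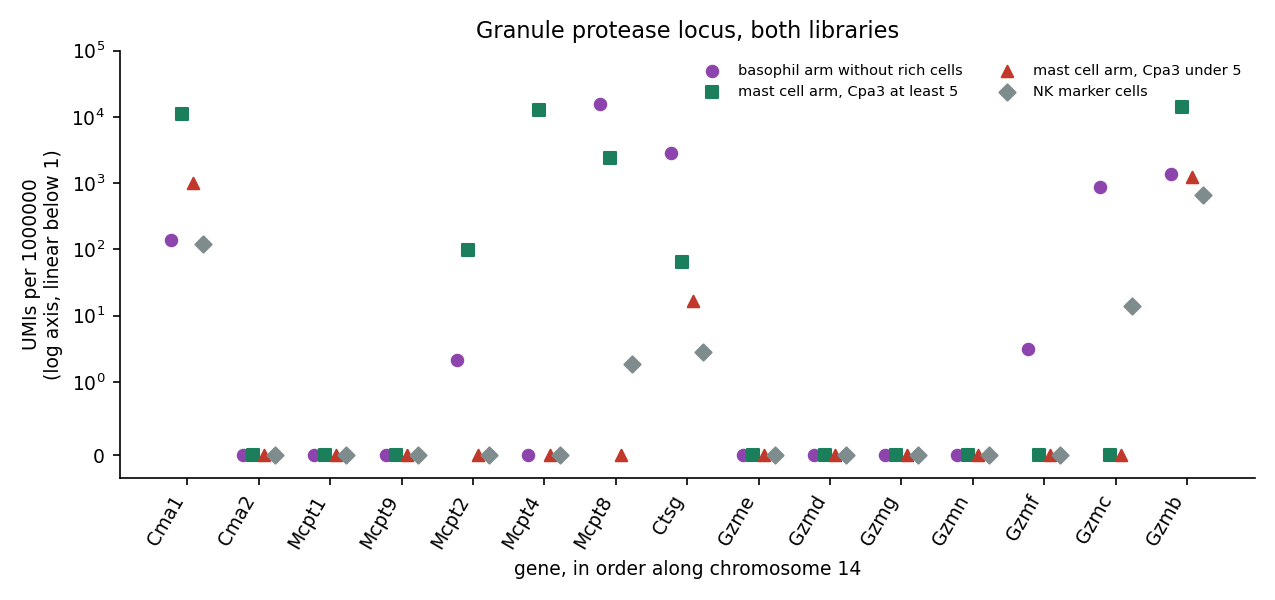
Level of each of the 15 protease genes of the chromosome 14 locus in order along the chromosome (log axis, linear below 1, UMIs per 1000000 UMIs), for the 72 basophil-arm cells, the Cpa3-positive and the Gzma-rich (Cpa3 under 5) cells of the mast cell arm, and cells with natural killer cell markers outside the arms, with both libraries together. Mcpt4 is seen among these groups only in the Cpa3-positive cells, where Mcpt8 comes from 2 cells, and Gzmb in each of the 3 groups of the arms.

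Against the other kept cells, 768 of 5931 genes with at least 20 UMIs in the basophil arm stood more than 2-fold higher (12.9%) and 327 more than 2-fold lower (5.51%). Because the cells were chosen by their own counts, these ratios are a description and not a test. A gene that is rare elsewhere passed the minimum of 20 UMIs only where the arm was high, so the counts of higher genes in the lists below follow in part from that minimum. Counts of higher and lower genes in those lists stand beside the 12.9% and 5.51% of all genes. Values below are UMIs per 1000000 UMIs of a group, 3′ counts that were not divided by transcript length. Of 20 basophil marker genes 19 stood more than 2-fold higher, the exception being Fcer1g (log2 ratio 0.27), the signalling chain that most myeloid cells share. Of 24 mast cell markers 11 passed that minimum, among them Fcer1a, Cpa3, Ms4a2 and Cyp11a1, whereas 10 had 0 UMIs, among them Mcpt4, Tpsb2, Tpsab1, Mrgprb1, Mrgprb2 and Tph1. Ratios of the arm over other kept cells were ranked among genes with at least 100 UMIs in it. The highest were those of Prss34 (log2 12.91), Mcpt8 (11.83), Prg2 (10.16, in 6 cells), Epx (10.14, in 5 cells), Fcer1a (9.62), Cpa3 (8.56), Alox15 (8.36), Ms4a2 (8.35), Il4 (8.26) and Cd200r3 (7.97). Cma1 was among the mast cell markers that passed, with 130 UMIs in 3 cells, nearly all from the cell in both arms.

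Prss34 (mast cell protease 11, ENSMUSG00000056399) had the most UMIs of any gene in the arm, at 27933 (27543 to 28327) in ND and 35621 (35152 to 36096) in HFD, against 5.0 and 3.18 in the other kept cells. It was detected in 30 of 39 ND cells and 39 of 44 HFD cells, against 3.62% and 1.28% of B cells. The B cells, picked with 0 Mcpt8 UMIs, are a guide to the level of free RNA. Without the granulocyte-rich cells it stood at 44158 and 43563, so the order of the libraries turned. In the 72 cells Prss34 ranged from 0 to 2519 UMIs per cell in ND (median 484) and from 0 to 1875 in HFD (median 413). Cells with 0 UMIs of it numbered 9 in ND and 5 in HFD, of which 7 and 3 were not among the 11 granulocyte-rich cells.

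Other granule proteases followed. Cpa3 stood at 2165 in ND and 2865 in HFD (3334 and 3419 in the 72 cells) against 7.77 and 5.50 elsewhere. Ctsg, also used by neutrophil precursors, stood at 2319.5 and 3066 against 192 and 171. Gzmb, best known from killer lymphocytes, stood at 856 and 1145 and was detected in 22 and 24 cells. Gzmc was found in 8 and 18 cells, at 409.9 and 898. The inhibitors Serpinb1a (531 and 408) and Cst7 (226 and 221) were above the other kept cells as well. Of 12 measured proteases and inhibitors 8 were more than 2-fold higher and 2, Ctsl and Cst3, lower.

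The IgE receptor was represented by all its chains. Fcer1a, the chain that binds IgE, stood at 648 (590.2 to 711) in ND and 736 (669 to 807) in HFD, against 0.971 and 0.780 in other kept cells. Without the granulocyte-rich cells it stood at 988 and 896, the opposite order of the libraries. Ms4a2, its signal-amplifying beta chain, stood at 437 and 603 (664 and 727 in the 72 cells), and Fcer1g at 1333 and 1691 against 1257 and 1232. The adaptors Lat (71.4 and 102) and Lat2 (180.0 and 263) were higher than elsewhere, while the kinases Lyn (87.1 and 68.2 against 185 and 191) and Syk (30.0 and 37.4 against 114 and 112) were lower. Of 25 receptor and signalling genes measured, 9 were more than 2-fold higher and 3 lower. Higher genes also included the receptors Cd200r3 (214 and 265) and Cd200r1 (35.7 and 61.7), which belong to the same family as paired activating and inhibitory members.

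Among cytokine receptors, 8 of 19 measured were more than 2-fold higher and 4 lower. The higher ones included both chains of the IL-3 receptor, with Il3ra at 116 in ND and 187 in HFD, the common chain Csf2rb at 284 and 348 and its IL-3-specific copy Csf2rb2 at 78.6 and 94.2. The lower ones were Csf2ra, the GM-CSF receptor chain that pairs with Csf2rb (31.4 and 32.5 against 144 and 132), Ifnar1, Tnfrsf1a and Csf3r. Receptors of tissue alarm signals were among the higher genes: Il1rl1 for IL-33 (45.7 and 73.1), Crlf2 for TSLP (167 and 190.0) and Il18r1 (48.6 and 66.6). Kit was among the higher ones over the whole arm, with 30 UMIs in 11 ND cells and 19 UMIs in 8 HFD cells, at 42.8 and 30.9 against 9.92 and 8.80 elsewhere. Of the 30 ND UMIs 9 lay in the cell in both arms and 7 in 1 granulocyte-rich cell, with smaller counts in other such cells. The ND level of Kit thus came in large part from these cells. Csf3r, the receptor of the neutrophil growth factor G-CSF, stood at 28.6 and 8.12 against 188 and 157 in other kept cells. The 11 granulocyte-rich cells held 20 of its 25 UMIs, and over both libraries it stood at 5.29 without them.

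Of 10 cytokine genes measured, 5 were more than 2-fold higher than in the other kept cells: Il4, Il13, Il6, Csf1 and Hgf. Il4 was detected in 20 of 39 ND and 26 of 44 HFD cells, at 271 (234 to 313) and 425 (376 to 480.3), against 0.781 and 1.44 elsewhere, and at 337 and 521 in the 72 cells. Il13, its neighbour in function, stood at 65.7 and 74.7, and Il6 at 283 and 375 in 27 and 34 cells (439 and 459 in the 72 cells). Csf1, the growth factor of macrophages and osteoclast precursors, stood at 289 and 261, and Hgf, the hepatocyte growth factor, at 204 and 302 against 8.29 and 6.03. Tnf was lower than elsewhere, with 9 UMIs in ND and 18 in HFD. Il5, Il9, Il10, Il1a, Csf2 and Il3 had 0 UMIs in the arm.

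Chemokine transcripts were abundant. Ccl4 stood at 3786 in ND and 5760.4 in HFD and Ccl3 at 1969.6 and 2067, against 367 and 234 and 194 and 100.4 in other kept cells. In the 72 cells Ccl4 stood at 5923 and 7039 and Ccl3 at 2944 and 2525, higher in ND. The 2 genes encode close relatives that attract monocytes and lymphocytes, and some of their reads may be split between them. Ccl9 was higher as well (304 and 573), while Cxcl1 was lower. Among chemokine and lipid mediator receptors, 3 of 15 were more than 2-fold higher (12.9% of all genes were) and 5 lower (5.51%). The higher ones were the adenosine receptor gene Adora2b (157 and 182) and the purine receptor genes P2ry14 (52.8 and 42.2) and P2rx1. The lower ones were Ccr2, Cxcr2, Ptafr, C5ar1 and S1pr1. Ptgdr2, a prostaglandin D2 receptor, had 0 UMIs.

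Genes for mediators kept in granules stood higher in 9 of 16 cases and lower in 0. Hdc, the enzyme that makes histamine, stood at 1719.7 in ND and 2384 in HFD (359 and 364 elsewhere, 2408 and 2813 in the 72 cells), and Slc18a2, the carrier that loads amines into granules, at 234 and 307 (2.15 and 1.97). Srgn, the proteoglycan core on which proteases are packed, stood at 7110.0 and 8757, and Cd63, a granule membrane protein exposed on degranulation, at 1654 and 2183. Of 9 genes of eicosanoid synthesis 3 were higher: Alox15 (detected in 22 ND and 24 HFD cells, with 56 and 54 UMIs), Alox5 (107 and 141) and Pla2g4a. Alox5ap, the partner of 5-lipoxygenase, stood at 998 and 1153 against 746 and 686. The leukotriene C4 synthase gene Ltc4s had 5 UMIs in ND and 1 in HFD, and the prostaglandin D synthase gene Hpgds had 1 and 0.

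Of 22 lineage transcription factor genes, 10 were more than 2-fold higher and 3 lower. Gata2, needed for basophils and mast cells alike, stood at 643 in ND and 1293 in HFD against 7.49 and 7.88 elsewhere, and at 983 and 1576 in the 72 cells. Cebpa, used by basophil but not mast cell progenitors, stood at 119 and 166, and in the Cpa3-positive mast-cell-arm cells it had 0 UMIs. Ikzf2 (143 and 300.4), Lmo4 (544 and 1046) and Runx1 (210.0 and 235) were higher too. Mitf, the mast cell factor, had 4 UMIs in ND and 0 UMIs in HFD. Cyp11a1, the enzyme that starts steroid hormone synthesis, stood at 454 and 702 against 3.04 and 1.56. Among genes with at least 100 UMIs its ratio was in the highest 15. Itga2b, an integrin chain shared with platelets, stood at 157 and 180.3.

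Sensory nerve signals were of interest because the study concerned innervation of the periosteum. Of 35 listed neuropeptide receptors and related genes, 27 had 0 UMIs in the basophil arm, among them Tacr1, Vipr1, Nmur1 and Mrgprb2. Ramp1, a subunit of the receptor of the sensory neuropeptide CGRP, was the only one with at least 20 UMIs, at 331 (290.1 to 377) in ND and 266 (227 to 310.4) in HFD. Its values lay in part in the 11 granulocyte-rich cells, and without them it stood at 156 and 189, against 120.1 and 120.2 in other kept cells. Calcrl, with which Ramp1 forms the receptor, had 14 UMIs in ND and 2 in HFD. Of 20 insulin, leptin and lipid genes measured 1 was more than 2-fold higher (12.9% of all genes were) and 2 lower (5.51%). The higher one was Igf1r (101 and 128 against 41.6 and 46.8), and the leptin receptor gene Lepr had 0 UMIs.

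Among the 72 cells, Mcpt8 varied from 9.77 to 556 per 10000 UMIs of the cell in ND (median 160) and from 8.85 to 364 in HFD (median 145). Spearman correlations with this value over 72 cells are given as a description, since cells of a library share depth and free RNA. Only genes with at least 100 UMIs were ranked. Prss34 followed Mcpt8 most closely (rho 0.84 over both libraries, 0.85 in ND, 0.87 in HFD), then Cpa3 (0.74), the chaperone gene Hsp90b1 (0.66), Nucb1 (0.63) and Ctsg (0.62). Pdia3 (0.62) and Pdia6 (0.61), which fold secreted proteins in the endoplasmic reticulum, and Fcer1a (0.59) were also among the 10 highest. At the other end were Pfdn5, the ribosomal gene Fau, Ifitm1, Ccl6 and the immediate-early gene Egr1, with rho between -0.54 and -0.44. Total UMIs per cell correlated with the Mcpt8 value at 0.35. Over all 83 cells of the arm Prss34 (0.86), Cpa3 (0.80) and Fcer1a (0.68) gave higher values still.

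Cells with less than 100 Mcpt8 UMIs per 10000 (12 ND, 17 HFD) were set beside those with at least 100 (19 ND, 24 HFD). Prss34 stood at 2136 (ND) and 6095 (HFD) UMIs per 1000000 UMIs in the lower range and at 66567 and 59537 in the higher. Fcer1a was lower in the lower range as well, at 378 and 386 against 1313 and 1114. The proliferation gene Mki67 stood at 26.0 and 46.5 in the lower range against 229 and 196. Cxcl2 went the other way, at 1524 and 3423 against 20.8 and 31.2, though 1 ND cell held 179 of the 262 UMIs of the arm and 3 HFD cells 89.4% of theirs. Ccl6 was higher in the lower range as well, at 1706 and 3237 against 167 and 130.4. Ifitm1 stood at 2429 and 4208 against 903 and 929.5, and Egr1 at 488 and 472 against 118 and 25.5. These genes were chosen for the difference. Others split by library, such as Gsn, at 45.6 in the lower and 198 in the higher range in ND but at 2865 and 130.4 in HFD, where 1 cell of the lower range held 81.8% of the UMIs of the arm. The lower range was also shallower, with a median of 6170.5 and 6120 UMIs per cell against 10361 and 13782.5, and the part of depth in these differences was not tested.

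**Figure D4:**
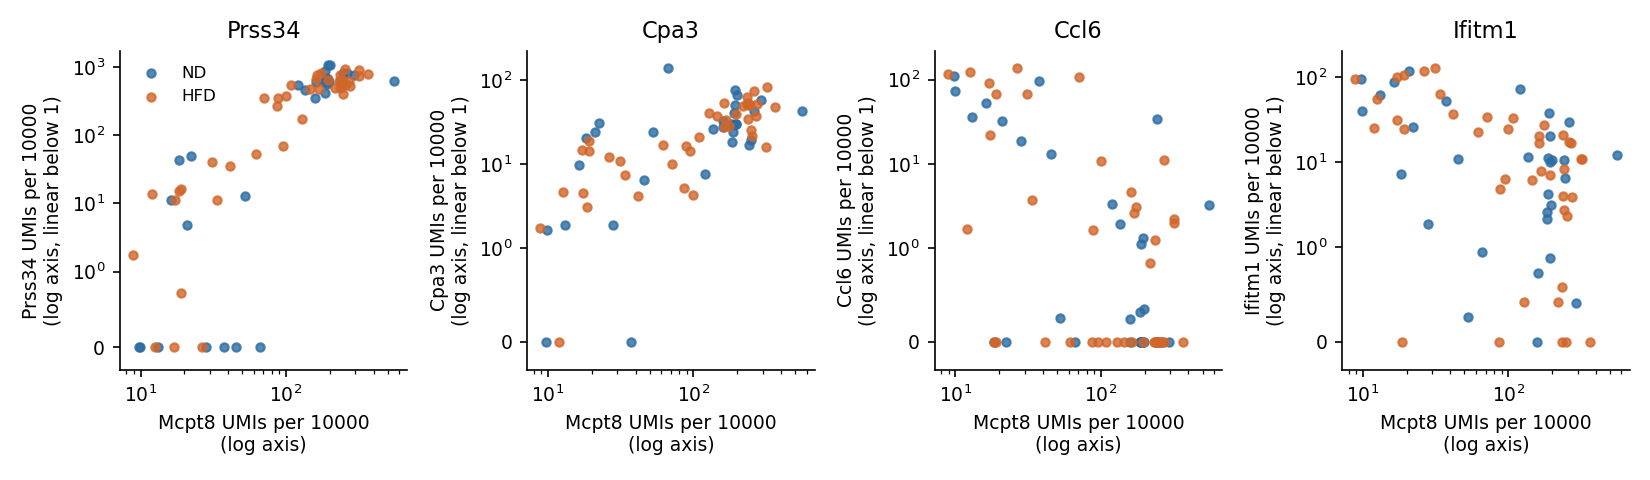
Prss34, Cpa3, Ccl6 and Ifitm1 against Mcpt8, each in UMIs per 10000 UMIs of the cell (log axes, the vertical ones linear below 1), for the 72 basophil-arm cells left without the 11 granulocyte-rich cells, coloured by library. Prss34 and Cpa3 are high where Mcpt8 is high, Ccl6 and Ifitm1 where it is low, and Mcpt8 reaches 556 in ND and 364 in HFD.

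At least 1 UMI of the proliferation gene Mki67 was found in 10 ND and 13 HFD cells of the 72 and of Top2a in 14 and 12, some of them with only 1 or 2 UMIs, and no background share was set for these genes. Of 33 cell cycle genes measured, 6 were more than 2-fold higher than in other kept cells (12.9% of all genes were), led by Cks2 at 2615 and 2998 against 352 and 257, and 0 were lower. Of 19 genes of early blood progenitors 12 were higher and 1, Ly6a, lower; Mpo, the myeloperoxidase of granulocyte precursors, stood at 2447 and 2723 over the arm and at 1699 and 1959 in the 72 cells, against 431 and 350.4.

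The study looked at nerve and bone in HFD-fed mice, and 1 of its comparisons set periosteal cells of the diets side by side. In the basophil arm 465 of 5931 genes (7.84%) differed more than 2-fold between the libraries, 226 higher in HFD (3.81%) and 239 lower (4.03%), and the median log2 ratio of all genes was 0.01. In the 72 cells 388 of 4871 genes did (7.97%), 201 higher (4.13%) and 187 lower (3.84%). The same genes past 2-fold in both calculations numbered 109 higher and 94 lower. A gene counted here differs between 2 libraries, not between replicated diets.

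Of 20 basophil markers 1 stood past 2-fold, against 7.84% of all genes. It was Gata2, which had 450 UMIs in ND and 796 in HFD (log2 ratio 1.01, 0.84 to 1.18). Without the 11 granulocyte-rich cells its ratio was 0.68 and 0 of the 20 remained past 2-fold. The median of the list was 0.41, and 0.13 in the 72 cells. Prss34 had a log2 ratio of 0.35 (0.32 to 0.38) over the arm and -0.02 in the 72 cells, Cpa3 0.40 and 0.04, and Fcer1a 0.18 and -0.14. Leaving out the granulocyte-rich cells, more numerous in ND, thus brought these 3 near equal levels, whereas Gata2, Il4 (0.62) and Cyp11a1 (0.45) still stood higher in HFD. Of 25 IgE receptor and signalling genes 1 stood past 2-fold, the kinase gene Fyn (17 UMIs in ND, 40 in HFD, log2 ratio 1.40, 0.57 to 2.33, and 1.16 in the 72 cells). Of 12 listed proteases and inhibitors 1 did, Cma1, through the single ND cell in both arms. Gzmc, a protease outside that list, had 287 and 553 UMIs (1.13, and 0.76 in the 72 cells). Ctsl was past 2-fold only without the granulocyte-rich cells (2.28).

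The cytokine and chemokine genes past 2-fold all had higher values in HFD, beside 3.81% of all genes past 2-fold higher. Of 10 cytokine genes these were Il1b and Tnf (9 and 18 UMIs, with an interval that includes equal levels, and 0.86 in the 72 cells). Il1b, the gene of the inflammatory cytokine IL-1 beta, had 286 UMIs in 13 ND cells and 776 UMIs in 29 HFD cells, a log2 ratio of 1.62 (1.43 to 1.83), and 1.87 in the 72 cells. In the other kept cells Il1b stood at 586 in ND and 495 in HFD. Its most abundant cell held 27.3% of the UMIs in ND and 22.2% in HFD, and as a mean over cells the log2 ratio was 0.99. Of 8 chemokine genes 3 were past 2-fold and higher in HFD (3.81% of all genes were). Cxcl2 had 262 and 530 UMIs (1.2, 0.99 to 1.42), with 68.3% and 42.1% of them in 1 cell, and in the 72 cells it was below 2-fold (0.94). Ccl2 (5 and 66 UMIs) and Cxcl1 (0 and 20 UMIs) lay in HFD almost wholly in 1 cell, with 98.5% and 90.0%. Ccl4 (0.61), Ccl6 (0.76) and Ccl9 (0.91) were higher by less than 2-fold, and Ccl3 was level (0.07, -0.04 to 0.18). Il4 had 190 and 262 UMIs (0.65, 0.37 to 0.93) and Il6 198 and 231 (0.41, 0.13 to 0.69), while Csf1 had 202 and 161 (-0.14, -0.45 to 0.16).

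Counts for the remaining lists of mediators and regulators stand beside the same 7.84% of all genes. Of 16 granule storage genes 2 were, Hs3st1 (1.01) and Ndst2 (5 and 17 UMIs), with a list median of 0.39. Of 15 measured in the 72 cells 0 were, Hs3st1 standing at 0.64, and the median was 0.20. Of 9 eicosanoid genes 1 was, Mgst1, lower in HFD with 46 and 6 UMIs, of which the granulocyte-rich cells held 45 and 2. Of the 8 measured in the 72 cells, Mgst1 not among them, 1 was past 2-fold lower. Of 22 transcription factor genes Gata2 and Ikzf2 (100 and 185 UMIs, 1.07) were, but neither was in the 72 cells (0.68 and 0.66), where Id1 alone was past 2-fold, lower in HFD (-1.23). Of 19 cytokine receptor genes Il7r, Tnfrsf1b, Tgfbr1 and Tgfbr2 were higher and Csf3r lower, all with fewer than 35 UMIs in a library. Of 20 insulin, leptin and lipid genes Plin3 was higher (15 and 30 UMIs) and Scd2 lower (20 and 8), with a list median of -0.19. Of 15 chemokine and lipid mediator receptor genes C3ar1 was higher (10 and 18 UMIs) and Cxcr2 (28 and 6), Ptger4 (28 and 10) and Cx3cr1 (30 and 2, with 96.7% of the ND UMIs in 1 cell) were lower, and in the 72 cells 2 of 13 were higher and 2 lower. Of 33 cell cycle genes 3 were lower and 0 higher, and of 19 early progenitor genes Ly6a was higher and Elane and Prtn3 were lower. Ramp1 had 232 and 164 UMIs (-0.31, -0.61 to -0.02), and in the 72 cells its ratio was 0.27.

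Early-response genes leaned to lower values in HFD. Of 38 genes of the dissociation and immediate-early response 8 were past 2-fold lower (4.03% of all genes) and 3 higher (3.81% of all genes; Nr4a1, Klf4, Socs3, the last wholly from 1 HFD cell), with a median log2 ratio of -0.45, and in the 72 cells 10 of 37 were lower and 3 higher. Hspa1a, the inducible heat shock protein 70, had 379 UMIs in 14 ND cells and 18 UMIs in 6 HFD cells (-4.17, -4.98 to -3.53). Klf2, a transcription factor known for its response to fluid flow, had 574 and 102 (-2.30, -2.63 to -2.0), and Jun 1133 and 476 (-1.06). The cell with most UMIs held 33.5% (ND) and 44.4% (HFD) of them for Hspa1a, and 13.1% and 47.1% for Klf2. Hspa1a, Klf2 and Jun were lower in HFD in the other kept cells too, with Hspa1a at 904 in ND and 315 in HFD, Klf2 at 1767 and 888 and Jun at 1554 and 876. The summed list stood at 21801 in ND and 15559.8 in HFD in the arm, and at 25127 and 17603 in other kept cells, its most abundant member being Jund (2998 and 2869.7 in the arm). Whether the time or handling of a preparation has a part in this was not tested, and with 1 library per diet it cannot be told apart from the diet.

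Genes of other cell types moved with the comparison too. The counts below stand beside 4.03% of all genes past 2-fold lower in HFD and 3.81% higher. All 11 neutrophil markers measured were lower in HFD, with a median log2 ratio of -3.22 and a summed level of 14016 against 1252, its most abundant genes S100a9 and S100a8. In the 72 cells, from which cells rich in S100a8 itself had been left out, 0 of 6 stood past 2-fold, with sums of 974 and 1361. Of 3 monocyte markers 2 were lower, and 0 of 2 in the 72 cells. Of 5 B cell markers 3 were lower in HFD (Cd79a, Ighm, Igkc) and 1, Ebf1, higher, with a median of -1.31. In the 72 cells 4 were lower, with a median of -1.71. Their counts were small, Igkc having the most with 49 UMIs in ND, 61.2% of them in 1 cell, and 17 in HFD. Of 7 erythroid markers 4 were lower, the globin genes Hba-a1, Hba-a2, Hbb-bs and Hbb-bt, which may share reads. In ND 1 cell with 661 Mcpt8 and 2519 Prss34 UMIs held 87.0% of the Hbb-bs UMIs, and in HFD 1 cell with 230 Mcpt8 UMIs held 93.0%. All 5 mesenchymal markers measured were higher in HFD, led by Dcn (5 and 158 UMIs), with summed levels of 24.3 and 544. Of the Dcn UMIs 91.8% lay in 1 HFD cell with 34 Mcpt8 and 22 Prss34 UMIs, and the same cell held most of Gsn, Col3a1, Sparc and Ccl2. The highest and the lowest log2 ratios among genes with at least 100 UMIs, Dcn (5.03) and Cma1 (-6.25), were thus values of single cells. Serpinb2 (39 and 97 UMIs, 1.49) was of the same kind, with 92.3% and 76.3% in 1 cell. Among the 10 highest ratios, Hip1r (32 UMIs in 22 ND cells, 77 in 30 HFD cells, 1.44), an endocytic adaptor, and the peroxisomal transporter gene Abcd3 (38 in 19, 80 in 24, 1.25) were spread over many cells, as was the transcription factor gene Ets1 (161 and 309 UMIs, 1.12). Without the granulocyte-rich cells Hip1r (1.2) and Abcd3 (1.06) were still past 2-fold and Ets1 (0.81) was not. Among the 10 lowest, Retnlg (-4.30), S100a8 (-3.93), S100a9 (-3.41) and Ngp (-3.22) are neutrophil genes and Ly6c2 (-3.14) and Lyz2 (-2.54) monocyte genes.

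**Figure D5:**
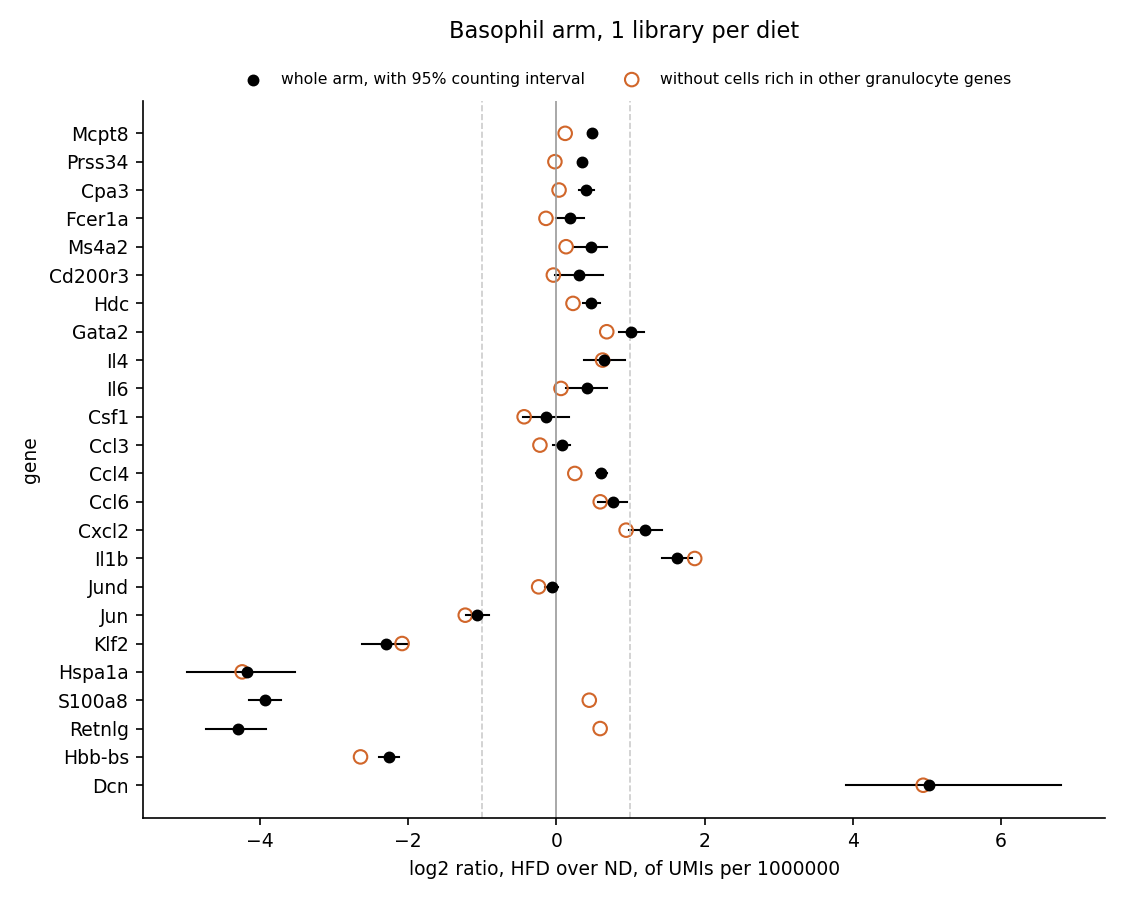
log2 ratio HFD over ND of UMIs per 1000000 UMIs of the basophil arm for 24 genes, with the 95% counting interval (filled points, whole arm) and the ratio in the 72 cells left without the granulocyte-rich cells (open circles); dashed lines mark 2-fold. Mcpt8, Prss34, Cpa3, Fcer1a, Ms4a2 and Cd200r3 lie between 0 and 1 over the whole arm and nearer to 0 without those cells, Gata2 at 1.01 and 0.68, Il1b above 1 in both, Cxcl2 at 1.2 and 0.94, Klf2 and Hspa1a below -2, and S100a8 and Retnlg change side when the granulocyte-rich cells are left out. Those cells were chosen in part by S100a8.

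The arms were also set beside each other. Of 6206 genes 2353 (37.9%) differed more than 2-fold between the basophil arm and the whole mast cell arm, 1233 higher in the basophil arm and 1120 lower, and beside the 5 Cpa3-positive cells alone 2568 of 6017 did (42.7%). Per 1000000 UMIs, the Cpa3-positive cells stood above the basophil arm in Cpa3 (14032 against 2493), Kit (1341 against 37.2), Gzmb (14130 against 991, from 2 cells) and Il1rl1 (621 against 58.5). Fcer1a (589 and 689), Ms4a2 (425 and 514), Hdc (1734 and 2031), Il4 (262 and 343) and Gata2 (1308 and 947) lay within 2-fold of each other. The ND cell in both arms counts in both groups here and supplies 10537 of the 30573 UMIs of the 5 cells. Without it Cpa3 stood at 14075 in the 4 other cells against 2400.1, Kit at 1597 against 30.6 and Gzmb at 17918 against 943. All 359 Gzmb UMIs of these 4 cells lay in a single HFD cell. Fcer1a, Ms4a2, Hdc, Il4 and Gata2 were again within 2-fold. Genes found in the basophil arm at 0 UMIs in the 5 cells included Il1b, Ccl6, Gzmc, Csf1, Hgf, Adora2b, Mpo and Cebpa, and Prss34, at 31531 over the basophil arm, had 2 UMIs in them. A gene at 0 in the 5 cells could still stand at up to 98.1 per 1000000 UMIs (3 UMIs).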

How the data were processed

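The deposited files hold raw UMI counts per gene and barcode, 1 matrix per diet, which the authors made with Cell Ranger 6.0.1 on mm10 (submitters' processing notes). Cells with more than 500 and fewer than 8000 genes and under 20% mitochondrial UMIs were kept. Members and gene lists were chosen with earlier results of these data known. The genes named were the markers given with the rule, members of the basophil, mast cell, IgE receptor, histamine, eicosanoid and sensory nerve lists, the most abundant members of other lists, and the 10 highest and lowest ratios.

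Levels are summed UMIs per 1000000 UMIs of a group with exact Poisson intervals. Log2 ratios, HFD over ND, had 0.5 added to each count, with exact conditional binomial intervals, for genes with at least 20 UMIs over both libraries, and past 2-fold is the call. No p-value was computed, since each diet is 1 library. Promoters came from RefSeq (GRCm38.p6).

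Doublets were scored with Scrublet (scanpy 1.11.5). Its automatic threshold called 0.166% (ND) and 0.177% (HFD) of cells, which was taken as too few, though this was not tested. A score above 0.25, chosen after seeing the scores, was therefore used, as an alternative only. Ratios were tested on simulated Poisson counts of a whole library with no spread between cells. Genes with most UMIs in 1 cell were thus not covered by that test. Python 3.11.15, numpy 2.4.6, scipy 1.17.1 and pandas 2.3.3 were used.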

Additional observations from a re-analysis of the deposited data

How the results depend on the processing

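The basophil share stayed within its interval with more than 200 genes, under 10% mitochondrial UMIs, a threshold of 3 or 10 UMIs and without doublet calls. The mast cell share in HFD was 0.370% at a threshold of 3 UMIs and 0.0321% at 10. With every cell at 1000 UMIs and 1 UMI enough, the shares were 1.02% (basophil, HFD), 0.352% (mast cell, ND) and 0.437% (mast cell, HFD). Genes past 2-fold between diets numbered 465, but 123 with at least 50 UMIs per gene, 826 as a mean over cells and 75 at 1000 UMIs per cell. Between the arms they numbered 2353, but 1089 with at least 50 UMIs and 241 at 1000 UMIs. The alternatives chosen after seeing the data left out the granulocyte-rich cells, the cells with under 5 Cpa3 UMIs, or the cell with most UMIs of a gene. Without the granulocyte-rich cells the log2 diet ratio was 0.59 for Retnlg, 0.44 for S100a8, 0.68 for S100a9, 0.17 for Ngp and 0.51 for Elane, all below 0 over the whole arm. Those cells were chosen by counts of S100a8, Elane, Prtn3 and Prg2, so this change of sign follows in part from the choice. Ngp was at 0.11 with at least 10 Mcpt8 UMIs, Ptger4 at 0.10 as a mean over cells, and Socs3 at -2.59 without its top cell. No diet result of the mast cell arm could be had at under 20 cells per library. No paired analysis was possible because the barcodes carry no mouse or replicate number and no test was made, and for the same reason no replicate could be left out.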

Other observations

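The lists of interferon-stimulated and adhesion genes were set beside the 7.84% of all genes past 2-fold between the libraries in the basophil arm. Isg15, a ubiquitin-like protein induced by interferon, had 19 UMIs in 8 ND cells and 59 UMIs in 15 HFD cells, at 27.1 and 95.8 UMIs per 1000000 UMIs against 86.3 and 106 in other kept cells. Of 7 interferon-stimulated genes measured it was the 1 gene past 2-fold between the libraries, with a list median log2 ratio of 0.37. Of 19 adhesion genes 1 was past 2-fold, L1cam (1.03), and the list median was -0.02.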
